A study of Coccomyxa subellipsoidea C-169 with 6 samples.

Results

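Transcripts of 6 genes of fatty acid synthesis were followed in the green microalga Coccomyxa subellipsoidea C-169, grown with and without CO2 supplementation. They were chosen by function: every identifier that the study names as an acetyl-CoA carboxylase (ACCase; COCSUDRAFT_65159 and COCSUDRAFT_27575), as 3-oxoacyl-ACP synthase II (COCSUDRAFT_54810), as acyl-ACP thioesterase (COCSUDRAFT_4465) or as an animal-type fatty acid synthase (COCSUDRAFT_49000 and COCSUDRAFT_47508) was taken, which gave 6 of the 9409 genes in the deposited table. The rule went by enzyme name and not by a measured value, but the study singled out some of these genes, COCSUDRAFT_65159 and COCSUDRAFT_49000 among them, for an increase in these same libraries, so their direction is not independent evidence. All 6 genes had enough reads to be tested. The table lists genes by number only, and that number is the last part of the RefSeq locus tag used here: 65159's tag is COCSUDRAFT_65159 and 27575's is COCSUDRAFT_27575, while gene 49000 is COCSUDRAFT_49000. The enzyme names are the study's and could not be checked against protein sequence here. The study's text calls COCSUDRAFT_65159 a subunit of ACCase. Whether COCSUDRAFT_27575 codes for the same part of that enzyme is not given, so their order, ratio and sum need not compare like with like. COCSUDRAFT_54810 is called synthase II, and COCSUDRAFT_4465 the thioesterase. Cells of strain C-169 were grown in Bold's Basal Medium under continuous light, either with 0.04% CO2 (AG) or with 2% CO2 (CG), and were harvested on day 4. One mRNA library was made from each of 3 biological replicates per group, called AG 1 to AG 3 and CG 1 to CG 3.

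Fatty acid synthesis begins with ACCase, which carboxylates acetyl-CoA to malonyl-CoA, the donor of carbon for chain growth. In plants and most algae the chain is then built in the plastid by separate enzymes that pass it along on acyl carrier protein (ACP), among them the 3-oxoacyl-ACP synthases that condense each unit, and an acyl-ACP thioesterase frees the finished fatty acid for export to other lipids. Animals use another arrangement, in which a single very large polypeptide, the type I fatty acid synthase, carries all of these activities in the cytosol. By the study's gene names C-169 holds both arrangements, and the comparison asks whether their transcripts responded alike to 2% CO2.

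Library totals were 2674507 to 4969639 counts. Levels of 1 gene between libraries are given as CPM, the counts of a gene scaled to a common library total after TMM scaling for differences in library composition, with TMM factors of 0.961 to 1.04. Levels of different genes are compared only as the deposited RPKM values, which are also divided by transcript length. A gene was called when edgeR's quasi-likelihood test over 8637 genes gave a Benjamini-Hochberg adjusted p under 0.05, and "rose" is used only of such genes.

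By this test, transcripts of 3 of the 6 genes rose in CG cells: the animal-type synthases COCSUDRAFT_49000 and COCSUDRAFT_47508 and the ACCase gene COCSUDRAFT_65159. The share of all tested genes called higher in CG was 27.3%. All values are relative to the whole mRNA pool of a culture, in which a change in the number of expressing cells and one in the RNA per cell cannot be told apart. The other ACCase gene COCSUDRAFT_27575, synthase II and the thioesterase had positive log2 fold changes that did not pass. Over the 6 genes the median log2 fold change was 1.23, against -0.01 over all tested genes. In every one of the 6 genes CG 2 and CG 3 lay above all 3 AG libraries, which held for 39.5% of tested genes. This is not independent evidence, since the study singled out some of these genes for their increase in CG. CG 1 lay far below CG 2 and CG 3 in all 6. Without CG 1 all 6 genes were called higher, where 34% of tested genes were. Leaving out CG 2 or CG 3 left 2 of the 6 genes called (22.4% and 23.1% of tested genes), and leaving out AG 1, AG 2 or AG 3 left 1, COCSUDRAFT_49000 (21.6%, 23.1% and 21% of tested genes). At the stricter rule of an adjusted p under 0.001 and a log2 fold change over 1, edgeR called 0 of the 6 with all libraries (7.95% of tested genes) and 5 without CG 1 (15.7%), and DESeq2 called 2 with all libraries, COCSUDRAFT_65159 and COCSUDRAFT_49000 (12.5%). Values with and without CG 1 are therefore given for each gene. Fits without CG 1 rest on CG 2 and CG 3, which lay closer to each other than to CG 1 in these genes. Their small adjusted p-values do not reflect the spread over all 3 CG cultures.

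**Figure D1:**
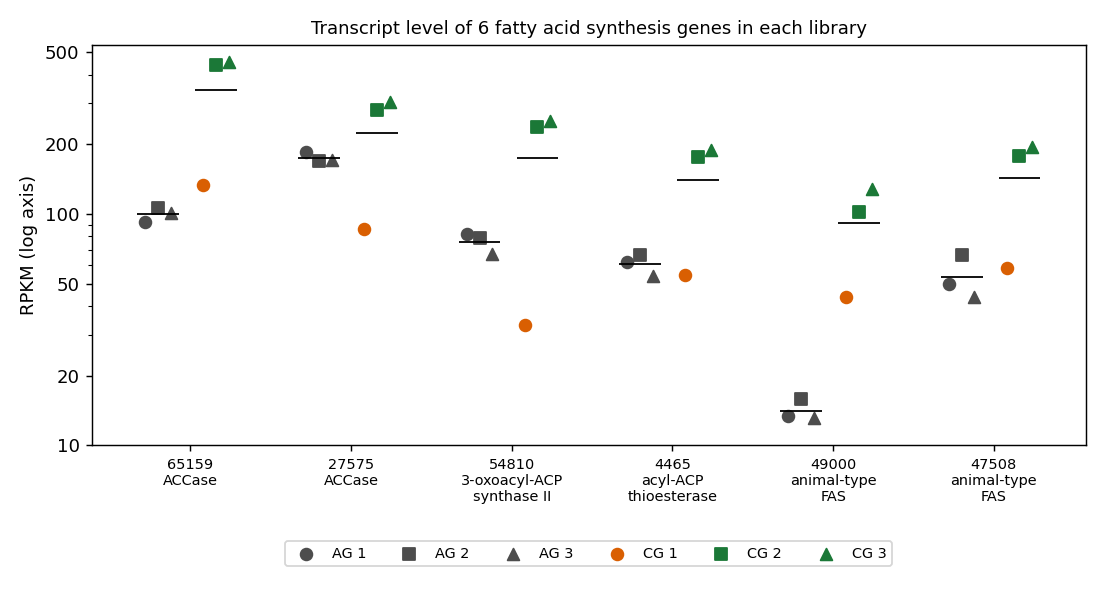
RPKM (log axis) of the 6 genes in each library; grey symbols are AG libraries, the orange circle is CG 1, green symbols are CG 2 and CG 3, and the black line is the mean of each group of 3. CG 1 lies below CG 2 and CG 3 for every gene, and only in COCSUDRAFT_65159 and COCSUDRAFT_49000 does it lie above all 3 AG libraries.

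The animal-type synthase COCSUDRAFT_49000 changed most among the 6 genes. Its level was 151, 174 and 149 CPM in AG 1 to AG 3 and 468, 1074 and 1356 CPM in CG 1 to CG 3. The groups did not overlap, and CG 1 was the lowest of the CG libraries. Group means were 158 ± 14.1 CPM (SD, n = 3) in AG and 966 ± 454 CPM (SD, n = 3) in CG. Its transcript was 6.11-fold higher in CG, a log2 fold change of 2.61 (SE 0.38) with an edgeR adjusted p of 0.00136. Only 2.85% of tested genes had a larger log2 fold change. The call held in all 15 alternative analyses, in which the log2 fold change ran from 2.28 to 2.94 and the adjusted p reached at most 0.0113.

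The animal-type synthase COCSUDRAFT_47508 was the more abundant of that pair in every library. It stood at 509, 656 and 446 CPM in the AG libraries and at 558, 1671 and 1842 CPM in the CG libraries. CG 1 fell inside the range of the AG libraries, so the groups overlapped through that library alone, a pattern found in 4.12% of tested genes. The means were 537 ± 108 CPM (SD, n = 3) in AG and 1357 ± 698 CPM (SD, n = 3) in CG. Transcripts of COCSUDRAFT_47508 rose 2.53-fold, a log2 fold change of 1.34 (SE 0.43; edgeR adjusted p = 0.0361). That call lies close to the threshold: the edgeR adjusted p was 0.0730 to 0.124 when AG 1, AG 2, AG 3, CG 2 or CG 3 was left out, and limma gave 0.0521. With CG 1 left out the log2 fold change became 1.71, at an adjusted p of 2.00e-06.

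Transcripts of both animal-type synthases are very long, 10886 nt for COCSUDRAFT_49000 and 9768 nt for COCSUDRAFT_47508, as back-calculated from their deposited counts and RPKM values. COCSUDRAFT_47508 had the most counts of the 6 genes in every library, 1519.5 to 7110, although per length only COCSUDRAFT_49000 was lower in AG. Fractional counts occurred in 6 of 6 libraries for COCSUDRAFT_49000 and in 4 of 6 for COCSUDRAFT_47508, and in none for the other 4 genes. The study describes counting reads that matched a single gene, and how the fractions arose is not given in the sources used here. If reads were nevertheless shared between similar sequences, the split between these genes, or with others, is uncertain, and that was not tested.

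The ACCase gene COCSUDRAFT_65159, of 1075 nt, was the other gene that rose. It was at 104, 115 and 113 CPM in AG and at 141, 457 and 470 CPM in CG. All CG libraries exceeded all AG libraries in 2 of the 6 genes, COCSUDRAFT_65159 and COCSUDRAFT_49000, against 31.5% of tested genes. In CG 1 the margin was small: the exact Poisson 95% interval of its level, 127 to 156 CPM, just cleared the upper end in AG 2, 126 CPM. Mean levels were 110.5 ± 6.02 CPM (SD, n = 3) in AG and 356 ± 186 CPM (SD, n = 3) in CG. The increase was 3.22-fold, a log2 fold change of 1.69 (SE 0.42; edgeR adjusted p = 0.0134). The call was lost by a narrow margin when AG 1, AG 2 or AG 3 was left out (edgeR adjusted p of 0.0564, 0.0528 and 0.0527), whereas without CG 1 it stood at 9.47e-11 with a log2 fold change of 2.06.

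The ACCase gene COCSUDRAFT_27575, of 2459 nt, had the smallest change. Its level was 474, 420 and 437 CPM in AG and 207, 668 and 723 CPM in CG. CG 1 was less than each AG library and CG 2 and CG 3 were greater than each of them, so that the CG libraries lay on both sides of the AG range. The group means of 444 ± 27.7 CPM (SD, n = 3) and 533 ± 284 CPM (SD, n = 3) differed by less than the spread within CG. The log2 fold change was 0.26 (SE 0.42; edgeR adjusted p = 0.627). Without CG 1 it was 0.65 with an adjusted p of 1.83e-05, and without CG 3 it was -0.024.

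Downstream of malonyl-CoA in the plastid route, synthase II, a condensing enzyme, was the most scattered. It stood at 144, 134 and 118 CPM in AG and at 54.7, 386 and 414 CPM in CG. CG 1 held 149 counts of this transcript, with an exact Poisson 95% interval of 46.2 to 64.2 CPM, below all AG libraries. Means were 132 ± 13.3 CPM (SD, n = 3) and 285 ± 200 CPM (SD, n = 3) in AG and CG. The log2 fold change was 1.11 (SE 0.63; edgeR adjusted p = 0.180). Its biological coefficient of variation, edgeR's measure of spread between replicates, was 0.528, and 0.359% of tested genes had a larger value. Without CG 1 the log2 fold change was 1.60 (edgeR adjusted p = 4.53e-09).

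The thioesterase gene, which acts at the end of the plastid route, had the fewest reads, 123 to 597 per library. It was at 54.6, 56.8 and 47.3 CPM in AG and at 45.1, 143 and 155 CPM in CG. CG 1 was just under the lowest AG library, whose level lies inside the exact Poisson 95% interval of CG 1, 37.5 to 53.8 CPM, and CG 2 and CG 3 were far above the highest. Means were 52.9 ± 4.98 CPM (SD, n = 3) in AG and 114 ± 60.2 CPM (SD, n = 3) in CG. The log2 fold change of 1.12 (SE 0.41) missed the threshold in edgeR, at an adjusted p of 0.0566. It passed with DESeq2 (adjusted p = 0.0248), with edgeR when libraries were scaled by their totals alone (adjusted p = 0.0455) and with edgeR when CG 1 was left out (log2 fold change 1.498, adjusted p = 2.40e-08).

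**Figure D2:**
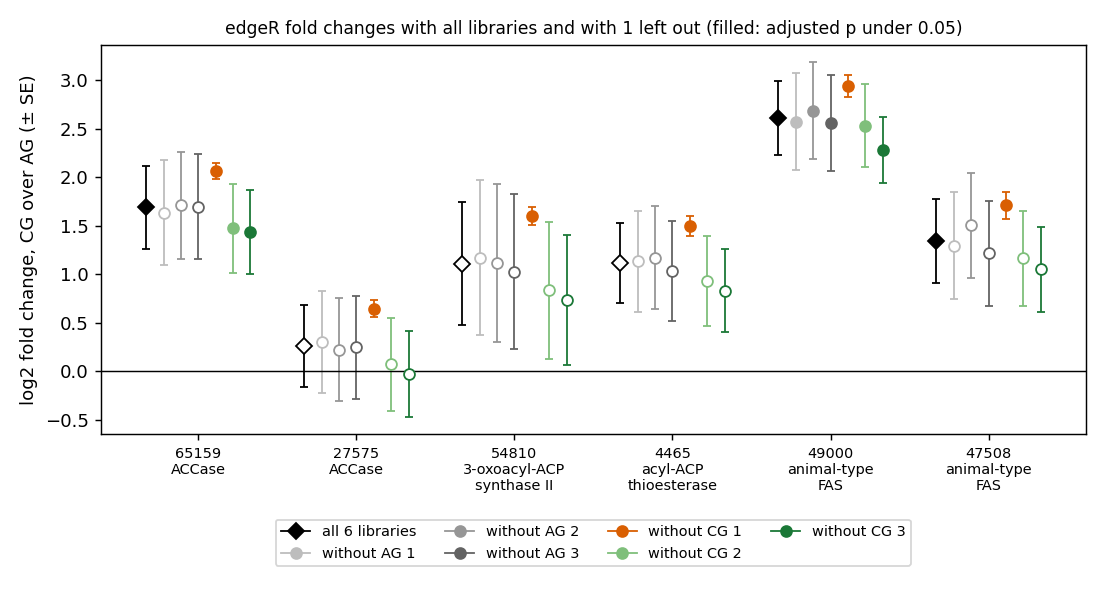
edgeR log2 fold change of CG over AG (vertical axis, bars ± SE) for the 6 genes, with all 6 libraries (diamonds) and with 1 library left out (circles); filled symbols have an adjusted p under 0.05. For COCSUDRAFT_49000 all symbols are filled, while for COCSUDRAFT_27575, synthase II and the thioesterase only the one without CG 1 is.

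CG 1 was the library whose removal added calls. Relative to the mean of CG 2 and CG 3 on the log2 scale, its level was 2.58 times lower for COCSUDRAFT_49000, 3.15 times lower for COCSUDRAFT_47508, 3.29 times lower for COCSUDRAFT_65159, 3.30 times lower for the thioesterase, 3.36 times lower for COCSUDRAFT_27575 and 7.31 times lower for synthase II. Over 8628 genes the median log2 difference between CG 1 and the other CG libraries was 0.00, a value that the scaling itself centres. The quartiles were -0.34 and 0.35, and 6.10% of genes were lower in CG 1 by at least 1 on the log2 scale, as all 6 were. CG 1 also differed beyond these genes: leaving it out raised the share of tested genes called in either direction from 52.2% to 68.2%. Leaving out CG 2 or CG 3 gave 41.6% and 43.9%. No record of a different treatment of CG 1 is given in the sources used here.

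The position of CG 1 relative to the AG mean separated the 6 genes. For COCSUDRAFT_49000 CG 1 lay at 53.4% of the log2 distance from the AG mean to the mean of CG 2 and CG 3, for COCSUDRAFT_65159 at 17.0% and for COCSUDRAFT_47508 at 4.27%. For the thioesterase, synthase II and COCSUDRAFT_27575 it lay on the other side of the AG mean, at -0.22, -1.27 and -1.10 on the log2 scale. Over the 2915 genes called higher in CG 2 and CG 3, the median was 73.4%, with quartiles of 41.4 and 99.7%, and 9.95% of them lay below 0. A pattern with CG 1 below all AG libraries and CG 2 and CG 3 above them was present in 3 of the 6 genes, COCSUDRAFT_27575, synthase II and the thioesterase, and in 3.92% of tested genes. These are the 3 genes that were not called with all 6 libraries. That is not a separate result, since CG libraries on both sides of the AG range widen the spread within CG. For the thioesterase the pattern depends on the scale, since in RPKM CG 1, at 54.6, lay just above AG 3, at 53.9.

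**Figure D3:**
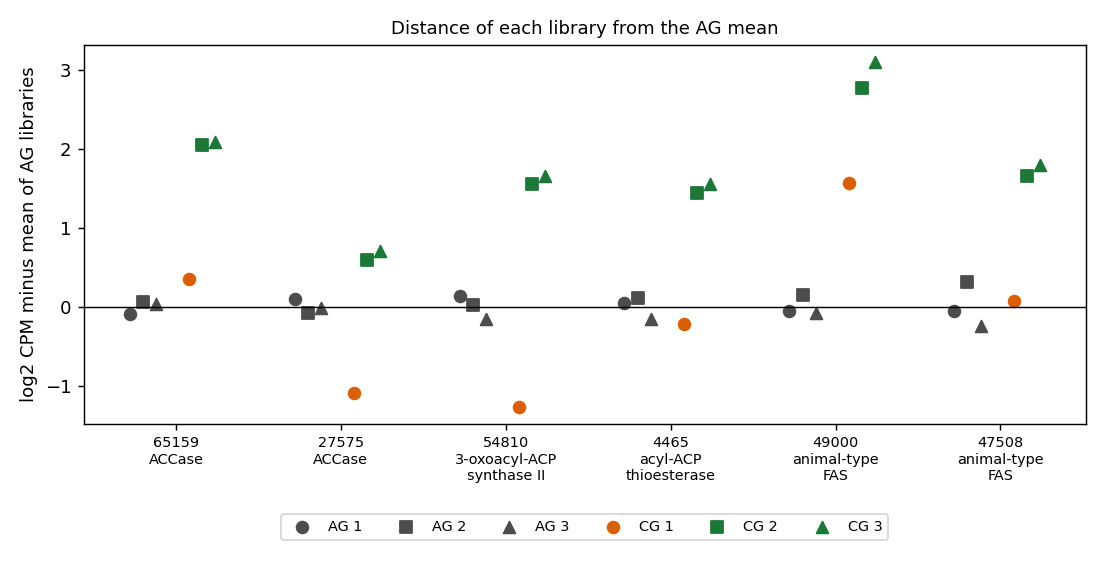
log2 CPM of each library minus the mean log2 CPM of the AG libraries, for the 6 genes; symbols as in the plot of RPKM. CG 1 ranges from 1.57 in COCSUDRAFT_49000 to -1.27 in synthase II, while CG 2 and CG 3 are above 0 throughout.

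Per length, the ACCase genes were the most abundant of the 6 transcripts and the animal-type synthases the least abundant in AG cells. In each AG library the RPKM order was COCSUDRAFT_27575, COCSUDRAFT_65159, synthase II, the thioesterase, COCSUDRAFT_47508 and COCSUDRAFT_49000. The levels of the thioesterase and COCSUDRAFT_47508 were neighbours whose AG ranges overlapped, 53.9 to 66.7 RPKM for the thioesterase and 43.9 to 66.4 RPKM for COCSUDRAFT_47508. The gap from COCSUDRAFT_47508 to COCSUDRAFT_49000, at 13.1 to 15.8 RPKM, was the widest in relative terms.

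In CG cells the order changed at its head. The ACCase gene COCSUDRAFT_65159 reached 134, 441 and 451 RPKM in CG 1, CG 2 and CG 3 and stood first in each, in front of COCSUDRAFT_27575 at 85.8, 282 and 303 RPKM. In AG the same genes had been at 99.8 ± 6.64 and 175 ± 8.91 RPKM (SD, n = 3 each). In CG 2 and CG 3 the animal-type COCSUDRAFT_47508, at 177 and 195 RPKM, was level with the thioesterase at 176 and 189 RPKM. The least abundant transcript was COCSUDRAFT_49000 in CG 2 and CG 3, at 102 and 128 RPKM, but synthase II in CG 1, at 33 RPKM. Because RPKM ranges in CG span CG 1 to CG 3, all neighbours in this order overlap over the 3 CG libraries.

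Ratios taken within a library cancel a loss or gain that is common to both genes, and several were much steadier than the levels. The RPKM ratio of ACCase COCSUDRAFT_65159 to ACCase COCSUDRAFT_27575 was 0.50, 0.625 and 0.592 in AG and 1.56, 1.56 and 1.49 in CG. CG 1 was among the other CG libraries here, and the groups did not overlap. The ratio was 2.69-fold higher in CG, a mean log2 difference of 1.43 with SDs of 0.17 in AG and 0.04 in CG (n = 3 each). Of all tested genes with a count in every library, 18.3% had a ratio to COCSUDRAFT_27575 that was higher in every CG library than in every AG library. The ratios are given as a description, with no test.

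The animal-type genes also shifted against each other. The ratio of COCSUDRAFT_49000 to COCSUDRAFT_47508 was 0.267, 0.239 and 0.299 in AG and 0.753, 0.577 and 0.660 in CG, with no overlap. This was a 2.47-fold rise of the ratio, or 1.30 on the log2 scale (SD 0.16 in AG and 0.19 in CG, n = 3 each). A ratio to COCSUDRAFT_47508 that was higher in every CG library than in every AG library occurred in 5.17% of genes. In AG cells COCSUDRAFT_47508 supplied most of the animal-type transcripts, and in CG 1 the pair came nearest to equal levels.

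The ratio of ACCase COCSUDRAFT_27575 to the thioesterase was 2.98, 2.54 and 3.17 in AG and 1.57, 1.60 and 1.60 in CG. Thus the thioesterase gained on this ACCase in all 3 CG libraries, with a mean log2 difference of -0.86 in the ratio. Among 8602 genes, no other kept a steadier ratio to COCSUDRAFT_27575 over the CG libraries than the thioesterase did, and the reverse also held (SD of the log2 ratio 0.015, n = 3). That SD is under the counting error of the thioesterase in CG 1 by itself, 0.13 on the log2 scale, so a steadiness of that degree cannot be resolved at this depth. The ratio of COCSUDRAFT_65159 to the thioesterase was also steady in CG, at 2.45, 2.50 and 2.38, after 1.49, 1.59 and 1.87 in AG.

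**Figure D4:**
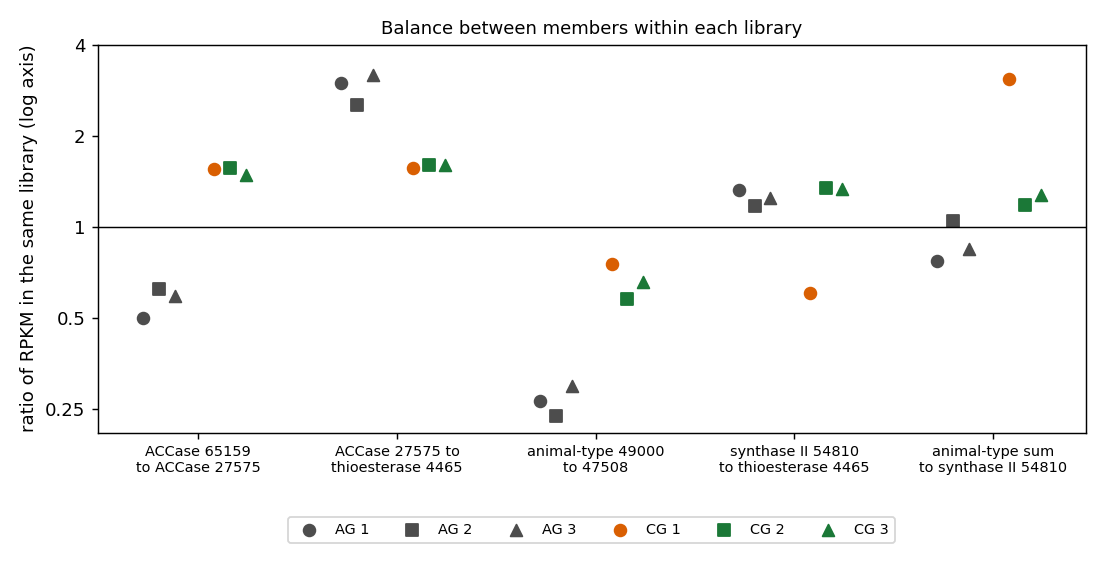
Ratios of RPKM within each library (log axis) for 5 combinations of the 6 genes; grey symbols are AG libraries, orange is CG 1 and green are CG 2 and CG 3. CG 1 sits with CG 2 and CG 3 in the ratios COCSUDRAFT_65159 to COCSUDRAFT_27575 and COCSUDRAFT_27575 to the thioesterase, and away from them in both ratios that hold synthase II.

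The balance between the routes was read as the summed RPKM of the animal-type synthases over the RPKM of synthase II. Synthase II is a condensing enzyme of the plastid route, and a ratio to this single gene does not measure the whole route. The ratio was 0.770, 1.05 and 0.848 in AG and 3.09, 1.18 and 1.28 in CG. All CG libraries were above all AG libraries, which held for 6.43% of genes set over synthase II. The mean log2 difference was 0.92, or 1.89-fold, with an SD of 0.23 in AG and 0.77 in CG (n = 3 each). Without CG 1 the difference was 0.48. It also differed between the synthases: taken alone over synthase II, COCSUDRAFT_49000 gave a mean log2 difference of 1.84 without overlap, and COCSUDRAFT_47508 gave 0.53 with overlap of the groups. Without CG 1 these differences were 1.33 and 0.13, so the one for COCSUDRAFT_47508 rests on that library.

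Within the plastid route, the ratio of synthase II to the thioesterase did not separate the groups. It was 1.32, 1.18 and 1.25 in AG and 0.606, 1.35 and 1.34 in CG. CG 2 and CG 3 were just above the AG libraries, and CG 1 was well below them. Of the 15 pairs that the 6 genes form, the ratio separated AG from CG in 11, and 3 of the 4 pairs that overlapped held synthase II. Ratios of all genes that did not overlap between the groups made up 11.5% when taken over synthase II, 25.1% over COCSUDRAFT_27575, 35.1% over the thioesterase, 41% over COCSUDRAFT_47508, 63.3% over COCSUDRAFT_65159 and 92.9% over COCSUDRAFT_49000. The pairs with COCSUDRAFT_49000 are therefore close to that background.

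As a share of all counts, the 6 genes together made up 0.126 to 0.154% in the AG libraries and 0.150, 0.456 and 0.512% in CG 1, CG 2 and CG 3. Most of the counts in CG came from the long animal-type transcripts, with 0.104, 0.285 and 0.330% of all counts. Per length, the summed ACCase level went from 272 to 278 RPKM in AG to 219, 723 and 755 RPKM in CG. In CG 1 the animal-type sum of 102 RPKM was above the AG sums of 57.0 to 82.2 RPKM, whereas the sums of the ACCase genes and of synthase II with the thioesterase were below all AG libraries.

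Fatty acids made by either route can be lengthened further in the endoplasmic reticulum, where 3-ketoacyl-CoA synthases carry out the condensing step. The study names 5 such genes, chosen for their increase in these same libraries, so their direction and number are not independent evidence. By edgeR 5 of 5 rose in CG cells, where 27.3% of tested genes did, with a median log2 fold change of 1.55. The log2 fold changes in edgeR were 0.96 (adjusted p = 0.0263) for COCSUDRAFT_12119, 1.06 (adjusted p = 0.0108) for COCSUDRAFT_18441, 1.55 (adjusted p = 0.00790) for COCSUDRAFT_64433 and 1.76 (adjusted p = 0.00407) for COCSUDRAFT_12451. The gene COCSUDRAFT_48328 (edgeR adjusted p = 1.04e-04) had 1, 0 and 2 counts in AG and 82, 58 and 67 in CG, too few in AG for a fold. Counts of COCSUDRAFT_12451 were also low, 8, 6 and 9 in AG and 11, 19 and 31 in CG, so its values are imprecise. CG 1 was 1.82 to 2.32 times lower than the other CG libraries in COCSUDRAFT_12119, COCSUDRAFT_12451, COCSUDRAFT_18441 and COCSUDRAFT_64433 and was higher than them in COCSUDRAFT_48328. Leaving out AG 1, CG 2 or CG 3 left 4 of the 5 called (21.6%, 22.4% and 23.1% of tested genes), and leaving out AG 2 or AG 3 left 3 (23.1% and 21%).

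The ribosomal protein gene RibL5, COCSUDRAFT_54775, was the study's reference in qRT-PCR. By that method the study reports significant upregulation of COCSUDRAFT_65159, COCSUDRAFT_49000, synthase II and the thioesterase, on this harvest day and later. For synthase II and the thioesterase this differs from the edgeR calls with all libraries. Folds relative to a reference also take in any change of the reference, and its part in the qRT-PCR result was not tested. In the libraries COCSUDRAFT_54775 was at 371, 300 and 354 CPM in AG and at 135, 258 and 293 CPM in CG. It was itself lowest in CG 1, 2.03 times lower than in CG 2 and CG 3, with a log2 fold change of -0.58 that did not pass (edgeR adjusted p = 0.124). Without CG 1 it was called lower, at a log2 fold change of -0.31 (edgeR adjusted p = 0.0163). Relative to it, 5 of the 6 genes were higher in every CG library than in every AG library, as were 48.3% of all genes. The exception was synthase II, whose RPKM ratio to COCSUDRAFT_54775 in CG 1, 0.255, was inside the AG range of 0.211 to 0.282. The mean log2 differences of these ratios were 3.13 for COCSUDRAFT_49000, 2.14 for COCSUDRAFT_65159, 1.82 for COCSUDRAFT_47508, 1.57 for the thioesterase, 1.29 for synthase II and 0.71 for COCSUDRAFT_27575.

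The profiles of the 6 genes over the 6 libraries, as log2 CPM relative to the AG mean, were set against those of 7790 genes with at least 10 CPM on average. The measure was the root-mean-square (RMS) log2 difference. Within the 6 genes, the thioesterase and the animal-type synthase COCSUDRAFT_47508 were the most alike, at an RMS of 0.21, which made the thioesterase the 7th closest of all genes to COCSUDRAFT_47508 and COCSUDRAFT_47508 the 20th closest to the thioesterase. By contrast, the ACCase gene COCSUDRAFT_65159 was the nearest of the 6 to COCSUDRAFT_49000 but only at rank 400, and no gene of the 6 came closer to COCSUDRAFT_27575 than rank 1213. The closest gene of all to COCSUDRAFT_65159 was COCSUDRAFT_25887 (RMS 0.08), which the files do not pair with a name.

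Neighbouring genes were examined because reads of both strands were counted together. By the RefSeq annotation of C-169, which holds all 6 genes, no protein-coding gene overlaps any of them, and 1 gene of another kind overlaps COCSUDRAFT_49000. Of the 12 genes directly beside them, 10 were tested, of which 4 were called higher (27.3% of tested genes) and 1 lower (52.2% were called in either direction). The neighbours called higher included COCSUDRAFT_44853 beside COCSUDRAFT_49000, with a log2 fold change of 0.79 (edgeR adjusted p = 0.00535), and COCSUDRAFT_34425 beside synthase II, with 0.82 (edgeR adjusted p = 0.00130).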

How the data were processed

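RNA of C-169 cells, 3 cultures with 0.04% CO2 (AG) and 3 with 2% CO2 (CG), was sequenced as short reads. The authors mapped clean reads with Bowtie (version not given in the sources used here) to Phytozome transcripts, counting sense and antisense hits together. The authors' estimated counts of these hits were taken as deposited, and the name reflects that 1206 of 9409 genes have a fractional value (tolerance 1e-06). The deposited RPKM values were computed by the authors from these counts. Also deposited were log2 fold changes, FDR values (adjusted p-values) and group means by the authors, none of which was used.

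Counts were rounded and fitted in R 4.3.3 with edgeR 4.0.16 (TMM, filterByExpr, robust quasi-likelihood, Benjamini-Hochberg over 8637 genes). The fit was tested on simulated data. Library totals of 2674507 to 4969639 limit precision, and Poisson intervals cover counting error only. Alternatives were other scalings, count filters, unrounded counts, a replicate block, DESeq2 1.42.0, limma 3.58.1 on log2(RPKM + 1) or log2(RPKM + 0.1), and each library left out. Stricter thresholds, ratios for all 15 pairs and the position of CG 1 over all genes were chosen after seeing the data. Plots used matplotlib 3.10.9 and summaries scipy 1.17.1, numpy 2.4.6 and pandas 2.3.3 in Python 3.11.15.

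The genes and lists were chosen with earlier results of these data known. The rule named the 6 genes, 5 elongation genes, the reference gene and the 3 closest profiles of each gene, of which only 1 is printed because these carry no names. Neighbours were examined in addition, and those named were chosen after their values were seen. The annotation matched 9372 of 9409 genes by locus tag and gives no product names, so planned lists of other pathway genes and protein comparisons were not analysed here.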

Additional observations from a re-analysis of the deposited data

How the results depend on the processing

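Of 117 recomputed fold changes and differences, 98 kept their direction and their side of the threshold or, where no test was made, moved by less than the replicate spread. With 1 library left out, the log2 fold change ran from 1.43 to 2.06 for COCSUDRAFT_65159, -0.024 to 0.65 for COCSUDRAFT_27575, 0.74 to 1.60 for synthase II, 0.83 to 1.498 for the thioesterase, 2.28 to 2.94 for COCSUDRAFT_49000 and 1.05 to 1.71 for COCSUDRAFT_47508, and 1 to 6 of the 6 genes were called higher. The lowest value for COCSUDRAFT_27575, without CG 3, was the only reversal. The stricter rule, chosen after the data had been seen, called 0 of the 6 genes in edgeR. DESeq2 gave 1.11 for the thioesterase and scaling by library totals 1.21, both past the threshold, and limma gave 1.25 and 1.26 for COCSUDRAFT_47508 with pseudocounts of 1 and 0.1, neither past it. With COCSUDRAFT_49000 alone over synthase II the log2 ratio difference was 1.84, and with the more abundant COCSUDRAFT_47508 alone it was 0.53. Relative to COCSUDRAFT_54775 the mean log2 difference of COCSUDRAFT_49000 was 3.13, against 2.48 in CPM. This ratio also takes in the lower level of COCSUDRAFT_54775 in CG (log2 fold change -0.58, not called). Why the other values moved was not tested. No source says that replicate numbers pair the cultures, and same-numbered libraries deviated together only at r = -0.034, 0.038 and -0.051 across genes. With the replicate number as a block, 2 of the 6 genes were called (24.3% of tested genes) and 4 of the 5 elongation genes, and COCSUDRAFT_47508 was not (log2 fold change 1.18, adjusted p = 0.0597). With 3 libraries per group and 1 that stands apart in these genes, the differences that could be called were limited. The biological coefficient of variation of the 6 genes, 0.321 to 0.528, was far above the common value of 0.186. It describes the spread between replicates and is not the estimate that the quasi-likelihood test itself used.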
